A study of Capra hircus with 12 samples.

Results

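RNA from the testes of black goats (Capra hircus) was compared between 3 postpuberty libraries (titles with D180) and 3 prepuberty libraries (titles with D30), the ages that lie on either side of puberty. All samples carry the same tissue label, testis, and the same wild type genotype label, and no treatment is named. The study sequenced testis at 4 ages to ask which transcripts, long non-coding and circular RNAs included, go with testicular development, and 3 neonatal libraries (D3) and 2 puberty libraries (D90) are used below only as a separate look at the same loci. Nothing in the labels ties a replicate to an animal, and the p-values below therefore reflect the spread between these 6 libraries only, which may be technical.

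Each library has 1 FPKM value per locus (fragments per kilobase, relative to library size). A locus was kept where 2 or more of the 6 libraries reached 1 FPKM, which gave 10884 of the 24116 listed loci. At the edge of that rule, MSTRG.171157 was kept with a second-highest FPKM of 1.0002, and MSTRG.344907 was left out with 0.99992. Of the loci kept, 9987 have MSTRG identifiers, the form that the assembler StringTie gives to transcribed loci, and 897 have the word gene and a number. No identifier matched the gene table of the goat assembly ARS1.2, so the loci have no symbol, biotype, position or sequence here, and their functions are not given. For the same reason the label testis could not be set against the marker genes of germ, Sertoli or Leydig cells.

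As background, the testis before puberty holds Sertoli cells, Leydig cells, peritubular cells and the stem-like germ cells called spermatogonia. At puberty the germ cells enter meiosis and go on to form spermatocytes, spermatids and sperm, which come to make up most of the cells of the seminiferous tubules. Meiotic and post-meiotic germ cells are known for transcribing an unusually large part of the genome, many long non-coding RNAs included. In whole tissue, fewer cells of a type and less RNA per cell cannot be told apart, and that holds for every difference below.

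The postpuberty testes showed more loci. A value above 0 was found for 21780, 21410 and 21748 loci in postpuberty replicates 1 to 3, against 16331, 15730 and 15404 in prepuberty replicates 1 to 3. Loci of at least 1 FPKM numbered 7962, 8018 and 9226 against 4958, 5124 and 4550, and loci of at least 10 FPKM numbered 438, 426 and 484 against 205, 213 and 196. Every postpuberty library lay above every prepuberty library in each of these counts (exact permutation test, two-sided, p = 0.1, the smallest that 3 against 3 allows). The library sizes read back from the FPKM steps were 34719495, 28124423 and 30273753 fragments in postpuberty and 26802945, 25512691 and 26723557 in prepuberty libraries, and with all reads thinned to the smallest of these, 21312 to 21537 loci against 15322 to 16266 still had a read. At the median length of the loci tested, 2436 bases, each unit of FPKM was worth 62.1 to 84.6 reads.

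Most of the loci changed, and most changes were rises. Of the 10884 loci, 4950 (45.5%) were higher in postpuberty testes, 1520 (14.0%) were lower and 4414 were not called. The calls thus took in 59.4% of the loci tested. A call needed a Benjamini-Hochberg adjusted p under 0.05 by limma on log2(FPKM + 1) and a change of at least 1 on that scale. Because of the added 1, log2 changes of loci with low FPKM are smaller than their true ratios. A further 3181 loci passed the adjusted p with a smaller change, of which 1279 were higher and 1902 lower. The 3 libraries of one age lay wholly above or below those of the other for 9635 loci (88.5%). Among the called loci this held for 4930 of the 4950 that rose and 1517 of the 1520 that fell. The calls were made from the same libraries, so this is no separate evidence for them.

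The rises were also the larger changes. The log2 change ranged from -5.06 to 8.34, with a median of 1.48 for the rises and -1.32 for the falls. Rises of at least 2 numbered 1227 and falls of that size 172, against 425 and 22 for a size of at least 3, and 70 and 1 for a size of at least 5. The median over all loci tested was 0.88 (quartiles -0.64 and 1.42) with the authors' scaling, 0.92 after median of ratios scaling, 2.20 after rescaling to TPM and 0.44 after quantile normalization. Of the called loci, 76.5% were higher. Quantile normalization, which gives every library the same distribution, lowered that share to 51.1% (2988 higher and 2860 lower). With 0.1 in place of 1 added to the FPKM, which weighs low values more, 5949 loci were higher and 2826 lower. All counts below use the authors' scaling and an added 1.

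**Figure D1:**
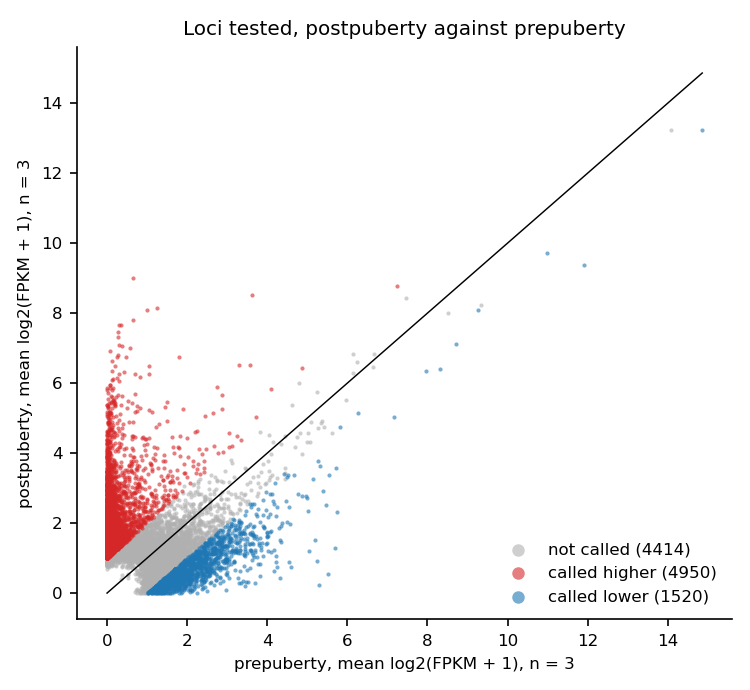
Mean log2(FPKM + 1) of each of the 10884 loci in the 3 prepuberty libraries (horizontal axis) and the 3 postpuberty libraries (vertical axis), with the loci called higher and lower in colour. The 4950 loci that rose crowd along the left edge, near 0 in prepuberty testes, and the 1520 that fell lie below the diagonal.

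Loci that rose had little signal in prepuberty testes, in part through the filter. Of the 4950, 4788 passed it through postpuberty libraries alone, and so were under 1 FPKM in at least 2 prepuberty libraries. The median level of the 4950 was 0.0242 FPKM in prepuberty and 2.12 FPKM in postpuberty testes, against 0.525 and 1.44 FPKM over all loci tested. In all 3 prepuberty libraries 4715 of them were under 1 FPKM, a count that the filter largely sets. In postpuberty testes 394 of them had a mean of at least 10 FPKM and 18 a mean of at least 100. The loci that fell mostly kept some signal, and their median went from 3.08 to 0.509 FPKM. In all 3 postpuberty libraries 1000 of the 1520 were under 1 FPKM, and 1106 had passed the filter through prepuberty libraries alone. Among the loci that fell, 137 had a prepuberty mean of at least 10 FPKM and 8 a mean of at least 100.

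The reads moved with the loci. Loci that rose held 1.69%, 1.56% and 1.48% of the reads on listed loci in prepuberty replicates 1 to 3, against 48.1%, 50.3% and 50.8% in postpuberty replicates 1 to 3. Loci that fell held 57.1%, 59.99% and 57.1% in prepuberty and 14.4%, 14.5% and 12.7% in postpuberty libraries. These shares describe the called loci, which were chosen from the same libraries. The listed loci held 16.3% to 18.0% of all fragments in postpuberty and 19.2% to 19.7% in prepuberty libraries, so the tables cover part of each library.

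The excess of rises lay in the loci that reached 1 FPKM at 1 age only, which could still have a value under 1 FPKM at the other age. The filter let in 6036 loci through at least 2 postpuberty libraries alone, and 4788 of these (79.3%) were higher, 0 lower. It let in 2696 loci through at least 2 prepuberty libraries alone, and 1106 of these (41.02%) were lower, 0 higher. A locus that entered through 1 age could hardly be called lower there, so these directions describe the filter. In the 2041 loci with at least 1 FPKM in at least 2 libraries of each age, the balance was the other way, with 162 higher (7.94%), 414 lower (20.3%) and 1465 not called. Their median log2 change was -0.29, and their median level was 2.63 FPKM in prepuberty and 1.89 FPKM in postpuberty testes. The remaining 111 loci, with 1 library of each age at 1 FPKM, held 0 calls. In the 2041 loci that reached 1 FPKM at both ages, falls outnumbered rises under quantile normalization too, with 718 against 85. Rescaling to TPM gave 429 falls and 318 rises.

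**Figure D2:**
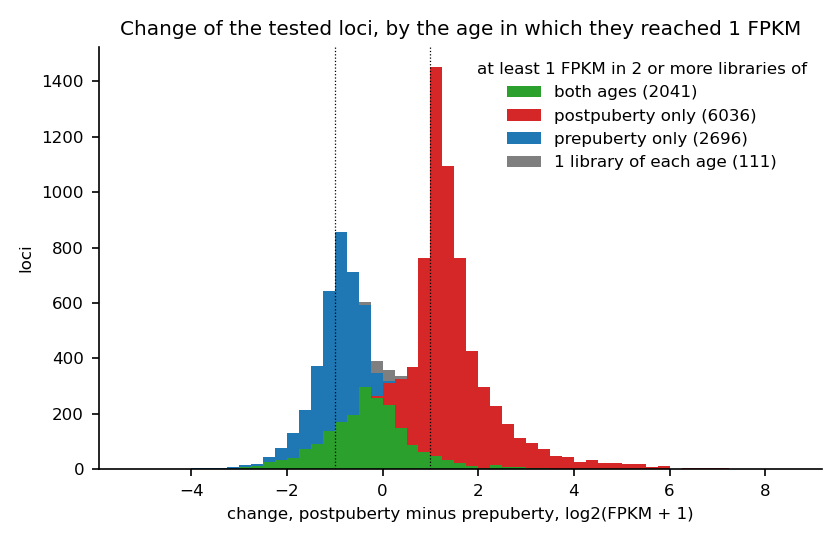
Number of loci by log2 change of FPKM + 1, postpuberty minus prepuberty, in steps of 0.25, split by the age through which a locus passed the filter. The 10884 loci form a peak below 0 (858 loci between -1 and -0.75) and a higher peak above 0 (1452 between 1 and 1.25), with 335 loci between 0.25 and 0.50.

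The most abundant loci that rose ranged from near silent to already high before puberty. gene13049 (implied length 313 bases) had 1.55, 0.376 and 0.120 FPKM in prepuberty and 503.3, 506.4 and 517.7 FPKM in postpuberty replicates 1 to 3. All 3 postpuberty libraries lay far above all prepuberty ones, and they differed little among themselves. It had the highest postpuberty level of the loci that rose and also the largest change, 8.34 ± 0.29 on the log2 scale (SE, limma adjusted p = 6.52e-07), a 747-fold ratio of mean FPKM that rests on 17 prepuberty reads. Without prepuberty replicate 1, which held most of those reads, the ratio was 2056. gene21247 (372 bases) was the opposite case, with 140.3, 150.5 and 163.9 FPKM in prepuberty against 461.5, 412.1 and 446.9 FPKM in postpuberty libraries, a 2.90-fold rise from an already high level (log2 change 1.53 ± 0.14, limma adjusted p = 3.22e-05).

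Between these lay gene6709 (772 bases), which was moderately expressed before puberty. It had 12.3, 10.7 and 11.1 FPKM in prepuberty and 387, 358 and 349 FPKM in postpuberty libraries, a 32.1-fold rise (log2 change 4.89 ± 0.12, limma adjusted p = 2.14e-07). gene14810 (517 bases) stood at 1.16, 1.06 and 0.796 FPKM and rose to 251, 281 and 289.7 FPKM, 273-fold (log2 change 7.10 ± 0.12, limma adjusted p = 1.27e-07). The prepuberty values of both loci were close to one another, and the groups were far apart. gene21344 (1040 bases) and MSTRG.337006 (1120 bases) had less even prepuberty values. gene21344 went from 2.80, 1.17 and 0.612 to 285, 316 and 255 FPKM, 187-fold, or 321-fold without prepuberty replicate 1 (log2 change 6.91 ± 0.30, limma adjusted p = 1.58e-06). MSTRG.337006 went from 1.57, 0.245 and 0.200 to 223, 210.4 and 228 FPKM, 329-fold, or 990-fold without prepuberty replicate 1 (log2 change 7.14 ± 0.29, limma adjusted p = 1.17e-06). In each case prepuberty replicate 1 was the highest of its group.

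The same library stood out for the other loci with the largest rises. MSTRG.198760 (838 bases) had 0.801, 0.047 and 0 FPKM in prepuberty and 187, 238 and 188 FPKM in postpuberty libraries (log2 change 7.37 ± 0.24, limma adjusted p = 5.45e-07). MSTRG.381237 (462 bases) had 0.888, 0.085 and 0 against 208, 213 and 186 FPKM (7.32 ± 0.24, limma adjusted p = 5.45e-07). gene4459 (446 bases) had 0.753, 0 and 0 against 170.5, 173 and 179 FPKM (7.18 ± 0.22, limma adjusted p = 4.87e-07). Their prepuberty reads numbered 19, 12 and 9 in all, nearly all of them in replicate 1. The ratios of mean FPKM were 722, 625 and 693.5. Without that library MSTRG.198760 and MSTRG.381237 had 1 prepuberty read each, and gene4459 had 0 reads and was at least 1352-fold higher in postpuberty testes, against a floor of 3 reads over the other 2 prepuberty libraries.

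Prepuberty replicate 1 held faint traces of many loci that were silent in the other prepuberty libraries. Of the 1346 loci with no read in prepuberty replicates 2 and 3 and at least 1 FPKM in each postpuberty library, 392 (29.1%) had a read in replicate 1, 1173 reads in all, and their summed FPKM there was 0.470% of their postpuberty mean. The same count made for replicate 2 gave 146 of 1100 loci (13.3%, 349 reads, 0.282%), and for replicate 3 it gave 126 of 1080 loci (11.7%, 308 reads, 0.218%). What set replicate 1 apart was not tested. The number of loci called higher without that library is within the range given for single libraries in the closing section, 4622 to 4956.

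A large class of loci had no read in the prepuberty testes and a clear signal after puberty. There were 954 loci with no read in any of the 3 prepuberty libraries and at least 1 FPKM in each of the 3 postpuberty libraries, and all 954 were called higher, as the choice makes all but certain. Without prepuberty replicate 1 the class held 1346 loci, and leaving out a library can only enlarge it. The postpuberty means of the 954 ran from 1.08 to 58.3 FPKM with a median of 2.21, and 54 reached 10 FPKM. Against a floor of 3 reads over the prepuberty group, the median locus was at least 87.7-fold higher. They were short, with a median implied length of 1200.5 bases against 2436 for the loci tested. A short locus gathers fewer reads at the same FPKM, so a choice by no read favours short loci. The part this plays was not tested. Only 12 had a gene number: 1.34% of the tested loci of that type, against 9.43% of the tested MSTRG loci.

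Among these, MSTRG.405255 (543 bases) had the highest postpuberty level, with 43.0, 69.999 and 61.9 FPKM in replicates 1 to 3, at least 834-fold above the floor (log2 change 5.86 ± 0.18, limma adjusted p = 4.43e-07). MSTRG.266351 (850 bases) had 55.1, 68.7 and 43.7 FPKM, at least 1251-fold above it (5.81 ± 0.16, limma adjusted p = 3.59e-07). Both were also high in the puberty libraries, at 41.5 and 69.0 FPKM for the first and 45.0 and 30.5 FPKM for the second. MSTRG.172107 (447 bases) had 47.0, 27.6 and 50.3 FPKM (at least 490.3-fold, 5.37 ± 0.22, limma adjusted p = 1.24e-06). MSTRG.279028 (403 bases) was the most even, with 38.3, 39.6 and 42.8 FPKM (at least 427-fold, 5.36 ± 0.09, limma adjusted p = 1.27e-07). MSTRG.386494 (788 bases) varied more, with 26.2, 59.3 and 25.1 FPKM (at least 765-fold, 5.13 ± 0.31, limma adjusted p = 6.07e-06), and it was also uneven in puberty, at 20.3 FPKM in one library and 0.147 FPKM in the other. With prepuberty replicate 1 left out, the floor lies higher because fewer fragments were searched, and these bounds became at least 551, 827, 324, 282 and 506 in the order given.

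The reverse pattern was rare. Only 9 loci had no read in any postpuberty library and at least 1 FPKM in each prepuberty library. All 9 were called lower, as the choice makes all but certain. With 1 of the 6 libraries left out the count lay between 12 and 19. It could only grow, since fewer libraries then had to meet the rule. These loci were chosen after their values were seen. MSTRG.355962 was the highest, with 4.24, 5.75 and 1.99 FPKM in prepuberty replicates 1 to 3 (1434 reads), at least 567-fold above a floor of 3 postpuberty reads. It was higher still in neonatal libraries, at 13.96, 5.07 and 9.17 FPKM, and nearly gone in puberty, at 0.037 and 0 FPKM. gene17072 had 2.59, 2.06 and 2.88 FPKM in prepuberty libraries (269 reads), at least 105-fold above the floor. The others were MSTRG.133992, MSTRG.133035, gene14313, MSTRG.90773, MSTRG.288345, MSTRG.406331 and MSTRG.304912, and MSTRG.288345 and MSTRG.406331 also had no read in puberty.

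The most abundant loci that fell kept a high level after puberty. MSTRG.335283 (355 bases), the most abundant in prepuberty testes, had 26083, 33952 and 29737 FPKM in prepuberty and 10539.5, 10631 and 7954 FPKM in postpuberty replicates 1 to 3, a 3.08-fold fall (log2 change -1.63 ± 0.27, limma adjusted p = 0.000858). It took 35.9%, 44.6% and 37.7% of the FPKM sum of the listed loci in prepuberty and 16.6%, 18.2% and 12.8% in postpuberty libraries. The groups did not overlap on either measure, but testing without the filter ended the call (limma adjusted p = 0.177). Quantile normalization, which sets values by rank alone, gave a log2 change of -0.43 and also ended the call. MSTRG.385323 (7781 bases) had 4025, 3521 and 4079 FPKM in prepuberty and 685, 661 and 662 FPKM in postpuberty libraries, a 5.79-fold fall (-2.53 ± 0.17, limma adjusted p = 9.35e-06), with -0.79 under quantile normalization, below the size needed for a call.

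MSTRG.180257 (3429 bases) fell by less. It had 1946, 1711 and 2532 FPKM in prepuberty and 943, 725 and 888 FPKM in postpuberty libraries (2.42-fold lower, log2 change -1.26 ± 0.22, limma adjusted p = 0.000979). The change was -1.14 after median of ratios scaling and -0.96 under TPM, the second below the size needed for a call. Quantile normalization gave 0.79, the mirror of the -0.79 of MSTRG.385323. The 2 loci traded ranks between the ages, and values there follow rank alone, so neither measures a change in level. gene1557 (781 bases) had 422, 404 and 433 against 146, 131 and 136 FPKM (3.05-fold lower, -1.60 ± 0.13, limma adjusted p = 1.99e-05). MSTRG.385334 (1696 bases) had 331, 247 and 386 against 91.2, 80.5 and 81.0 FPKM (3.81-fold lower, -1.90 ± 0.19, limma adjusted p = 5.57e-05). For all 3 loci every prepuberty library lay above every postpuberty library. MSTRG.16 (673 bases) also did so, with 375, 1367 and 442 against 232, 292 and 288 FPKM (-1.18 ± 0.47, limma adjusted p = 0.0454), but prepuberty replicate 2 was far above the rest, and without it the fall was 1.51-fold and the change -0.59, below the size needed for a call. The call of MSTRG.16 was also lost without any one of the postpuberty libraries (limma adjusted p 0.141, 0.105 and 0.108 without replicates 1, 2 and 3), without the filter (0.0666), after median of ratios scaling (0.0647), after rescaling to TPM (0.117) and with voom on recovered reads (0.0623).

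The loci with the deepest falls went from a clear signal to almost nothing. MSTRG.334477 (338 bases) had 35.7, 40.4 and 38.5 FPKM in prepuberty and 0.085, 0 and 0.489 FPKM in postpuberty libraries, 1019 reads against 6 (log2 change -5.06 ± 0.16, limma adjusted p = 5.26e-07). The ratio of its means was 199.6, and it was 896 without postpuberty replicate 3 and 133 without postpuberty replicate 2. MSTRG.110062 (296 bases) had 43.9, 45.2 and 46.3 against 0.778, 0 and 0.781 FPKM, 1055 reads against 15 (-4.97 ± 0.23, limma adjusted p = 1.98e-06). Its ratio of means was 86.7, and 57.8 without postpuberty replicate 2, the library with no read. The prepuberty values of both loci were close together, so the size of the ratio is set by a few postpuberty reads.

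gene17713, a long locus (6141 bases), kept a low level in all 3 postpuberty libraries. It had 48.9, 55.8 and 47.6 FPKM in prepuberty and 1.60, 1.49 and 1.19 FPKM in postpuberty libraries, a 35.6-fold fall (log2 change -4.41 ± 0.12, limma adjusted p = 2.76e-07). gene8868, whose implied length is only 122 bases, had 33.3, 40.5 and 37.1 against 0.472, 2.04 and 0.542 FPKM, 356 reads against 11 (-4.31 ± 0.28, limma adjusted p = 7.83e-06). Its fall was 36.3-fold, and 72.95-fold without postpuberty replicate 2. MSTRG.408422 (993 bases) had 27.4, 7.11 and 33.5 against 0.319, 0.179 and 0.599 FPKM (-3.88 ± 0.51, limma adjusted p = 0.000238). Unlike the other 4, MSTRG.408422 was also low in the neonatal libraries, with a mean of 0.134 FPKM, and at 0.711 FPKM in puberty, so that among the 4 ages it was high in prepuberty testes alone.

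**Figure D3:**
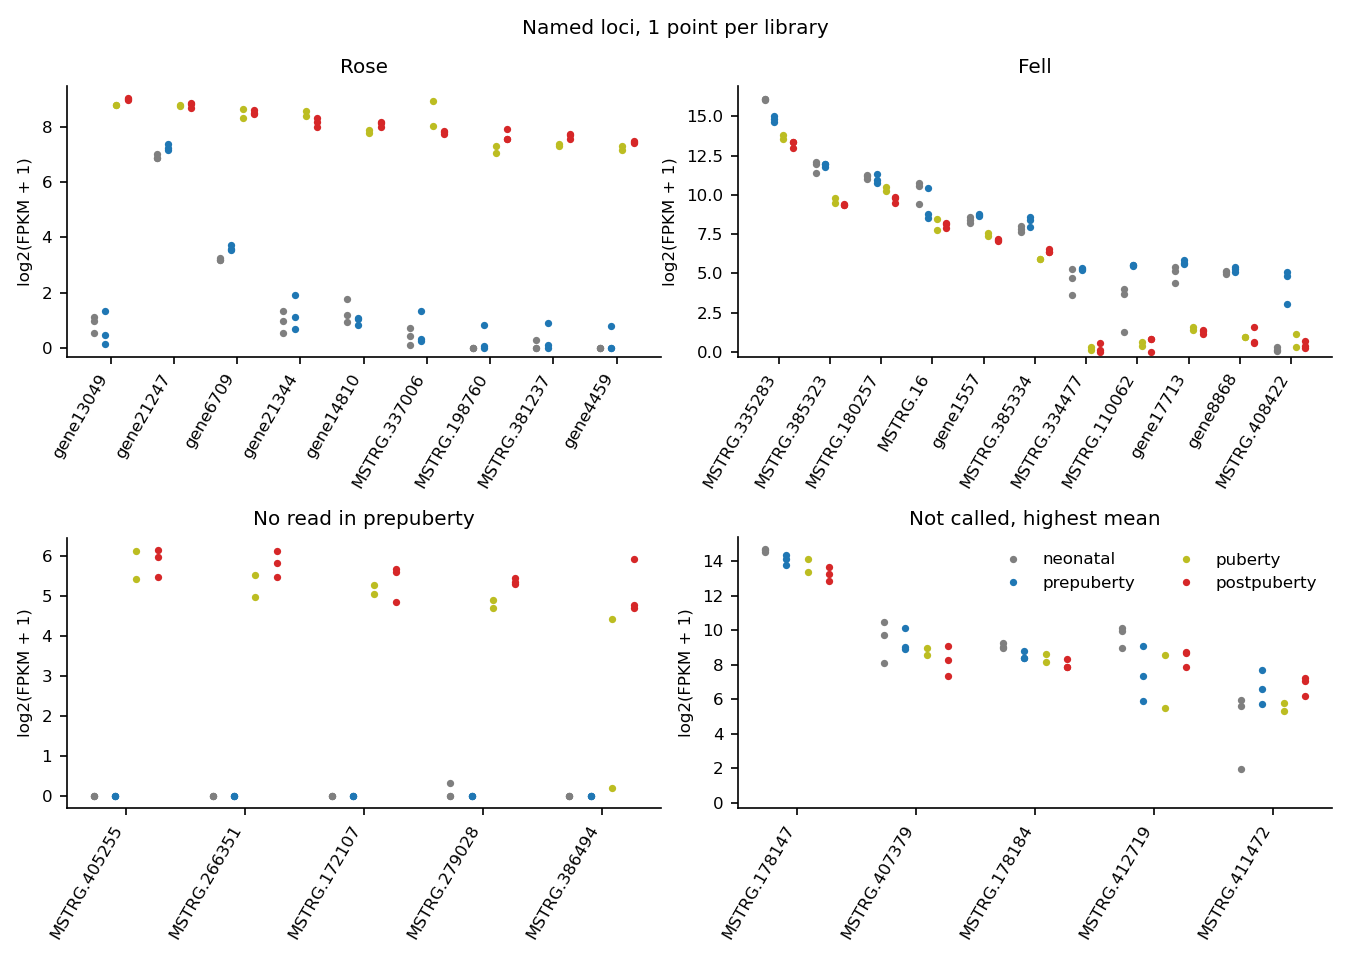
log2(FPKM + 1) of the named loci, 1 point for each of the 11 libraries and 1 colour for each of the 4 ages, in panels for loci that rose, fell, had no read in prepuberty, or were not called. gene13049 goes from at most 1.55 to at least 503.3 FPKM, and MSTRG.334477 from at least 35.7 to at most 0.489 FPKM, while the libraries of MSTRG.411472 overlap.

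The most abundant loci that were not called varied too much, or changed too little, for a call. MSTRG.178147 (1509 bases) had 17917, 14010 and 20960 FPKM in prepuberty and 12834, 7253 and 9781 FPKM in postpuberty libraries. Its groups did not overlap and it passed the adjusted p (limma adjusted p = 0.0371), but its change was -0.84 ± 0.32. The 0.43 under quantile normalization, where values follow rank alone, mirrors the -0.43 of MSTRG.335283. MSTRG.178184 had 340, 329 and 441 against 320, 231 and 232 FPKM, again without overlap (-0.50 ± 0.20, limma adjusted p = 0.0435). The other 3 overlapped. MSTRG.407379 had 1112, 474 and 513 against 160, 313 and 539 FPKM (-1.11 ± 0.50, limma adjusted p = 0.0696). MSTRG.412719 had 164, 59.9 and 537 against 418, 229 and 417 FPKM (0.97 ± 0.73, limma adjusted p = 0.242). MSTRG.411472 had 203, 52.5 and 94.5 against 71.4, 150 and 133 FPKM (0.16 ± 0.50, limma adjusted p = 0.762). For these the spread within an age was as wide as the difference between ages.

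The neonatal and puberty libraries took no part in the filter or the calls, and they also span the step from a younger to an older testis. Between puberty and neonatal libraries, limma on the same loci called 2859 higher (26.3%) and 2069 lower (19%). Of the 4950 loci that were higher in postpuberty testes, 2748 (55.5%) were called higher in puberty, 0 were called lower, and 4919 (99.4%) had a positive difference, against 58.7% of all loci tested. Of the 1520 that were lower, 1183 (77.8%) were called lower, 0 were called higher, and 1499 (98.6%) had a negative difference, against 41.3% of all loci tested. Both puberty libraries lay above every neonatal library for 4700 of the loci that rose, and for 51.6% of all loci tested. They lay below every neonatal library for 1426 of the loci that fell, and for 34.3% of all loci tested. In the loci that reached 1 FPKM at both ages, 108 of the 162 that rose were called higher (66.7%) and 331 of the 414 that fell were called lower (79.95%).

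The levels of both classes fell into an earlier and a later state. The median FPKM of the loci that rose was 0.00900, 0.0171 and 0.0157 in neonatal replicates 1 to 3, 0.0243, 0.0106 and 0.00501 in prepuberty replicates 1 to 3, 1.46 and 1.34 in the puberty libraries and 2.02, 2.01 and 2.38 in postpuberty replicates 1 to 3. For the loci that fell, the medians were 3.07, 3.43 and 3.56 in neonatal, 3.09, 3.28 and 2.88 in prepuberty, 0.605 and 0.430 in puberty and 0.528, 0.521 and 0.507 in postpuberty libraries. Neonatal libraries thus lay with prepuberty, and puberty libraries lay near postpuberty, with the loci that rose still lower in puberty than after it. The loci that rose were chosen for high postpuberty values, so that last order cannot be separated from the choice, and it was not tested.

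Loci silent in prepuberty testes were largely silent in neonatal testes as well. Of the 954, 705 (73.9%) had no read in any of the 3 neonatal libraries, 865 had at most 3 reads there, and 3 reached 1 FPKM in a neonatal library. In puberty, 942 had a read in both libraries, 478 (50.1%) had at least 1 FPKM in both, and 0 were without a read. Their median puberty mean was 1.38 FPKM, against 2.21 FPKM in postpuberty testes. The 954 loci were chosen by their postpuberty values, so this order cannot be separated from the choice.

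**Figure D4:**
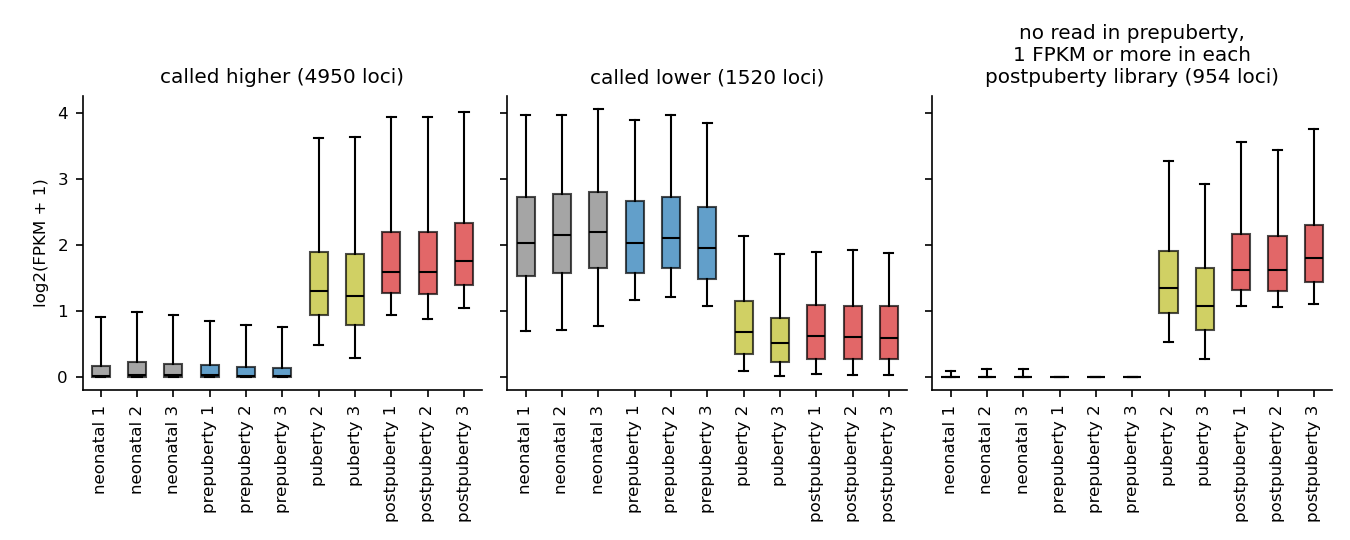
log2(FPKM + 1) in each of the 11 libraries for the 4950 loci called higher, the 1520 called lower, and the 954 with no read in prepuberty and at least 1 FPKM in each postpuberty library. Boxes span the quartiles with the median as a line and whiskers run from the 5th to the 95th percentile. In all 3 panels the neonatal libraries sit with prepuberty and the 2 puberty libraries near postpuberty.

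Some single loci followed the pattern of their class and others did not. gene13049, at 0.871 FPKM in neonatal and 440.3 FPKM in puberty, and gene6709, at 8.24 and 361 FPKM, had puberty means near their postpuberty levels. MSTRG.337006 was at 259 and 487 FPKM in the 2 puberty libraries, each above its 3 postpuberty values. MSTRG.412719, not called between postpuberty and prepuberty, was lower in puberty than in neonatal libraries (log2 change -2.65, limma adjusted p = 0.047). Its 2 puberty libraries were far apart, at 384 and 43.6 FPKM, against 510, 996 and 1103 FPKM in neonatal replicates 1 to 3. Of the named loci called between postpuberty and prepuberty, 4 were not called between puberty and neonatal libraries: MSTRG.180257, gene1557 and MSTRG.408422, which fell, and MSTRG.386494, which rose.

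The calls were also counted by identifier type. Among MSTRG loci, 4699 (47.1%) were higher and 1304 (13.06%) lower, with a median log2 change of 0.93. Among loci with a gene number, 251 (27.98%) were higher and 216 (24.1%) lower, with a median of -0.13. The background over all loci was 45.5% higher and 14.0% lower. The types differ in length as well, with median implied lengths of 2680 and 951 bases. In the loci that reached 1 FPKM at both ages, 80 of the 449 numbered genes (17.8%) were higher, against 82 of the 1592 MSTRG loci (5.15%), while the shares lower were close, at 20.7% and 20.2%. The difference between the types was not tested.

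Loci that fell were longer than loci that rose, with median implied lengths of 3733 and 2073 bases, and 2652.5 bases for loci not called. Loci of 500 to 999 bases rose most often, at 55.1% of 1651, with 9.33% lower. Loci of at least 5000 bases rose least often, at 37.2% of 3097, with 20.3% lower and a median log2 change of 0.18. In the loci that reached 1 FPKM at both ages, the share higher went from 16.8% of the 155 loci under 500 bases through 11.8% of the 322 loci of 1000 to 1999 bases to 3.07% of the 782 loci of at least 5000 bases. The share lower was 15.5%, 17.7% and 25.2% in these 3 classes. A long locus gathers more reads at the same FPKM, and the part that depth plays in these shares was not tested.

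By level, rises outnumbered falls in every class of mean FPKM, against 45.5% higher and 14.0% lower over all loci. These classes include the loci that passed the filter through 1 age only, whose directions describe the filter. In the 2041 loci that reached 1 FPKM at both ages, 162 were higher and 414 lower, and these were not split by level. Loci with a mean under 1 FPKM over the 6 libraries were higher in 49.4% of 4369 cases and lower in 6.57%. Of the 1920 loci with a mean of 2 to 5 FPKM, 40.4% were higher and 26.2% lower. Of the 103 loci with a mean of 20 to 100 FPKM, 66 (64.1%) were higher and 15 lower, with a median log2 change of 4.95. In the 21 loci with a mean of at least 100 FPKM, 8 were higher, 7 lower and 6 not called.

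StringTie numbers its loci as it writes them, so that loci with close numbers may lie close in the genome or be pieces of 1 transcript, but the tables give no positions and neither was tested. Tested loci with consecutive MSTRG numbers were both lower more often, and opposite less often, than loci with distant numbers, while both higher was less frequent among them. Of 900 such pairs, 21.6% were both higher, 10% both lower and 5.0% opposite, and the Pearson correlation of their log2 changes across pairs was 0.48. In the 4747 pairs of neighbours in the list whose numbers lay more than 20 apart, 27.6% were both higher, 1.96% both lower and 11.4% opposite, with a correlation of 0.05. The correlation was 0.39 at a gap of 2, 0.30 at 3 to 5 and 0.13 at 6 to 20. It is a description, since pairs share libraries and loci.

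**Figure D5:**
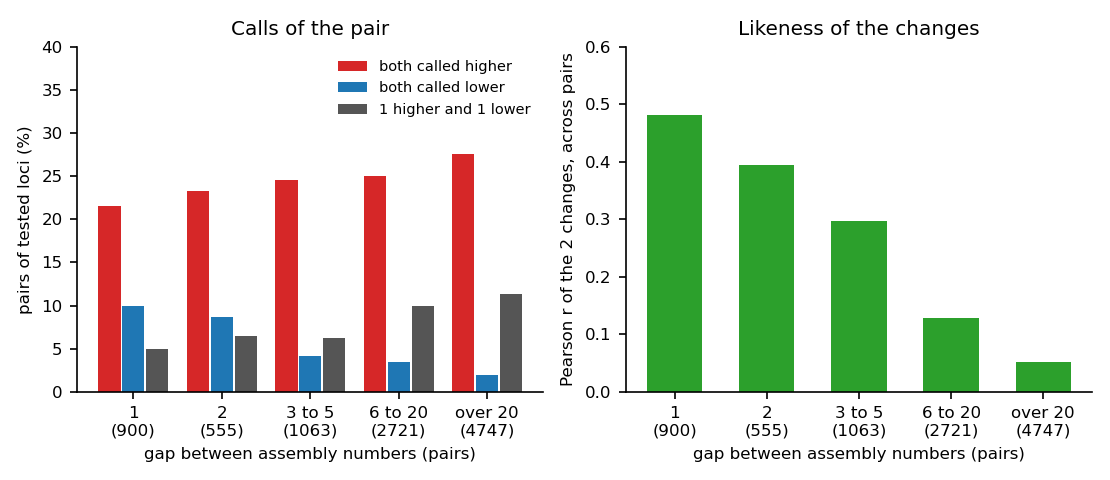
Share of pairs of tested MSTRG loci, in percent, that were both higher, both lower or called in opposite directions, by the gap between their numbers. Both lower goes from 10% at a gap of 1 to 1.96% at gaps over 20, while both higher goes from 21.6% to 27.6%.

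Runs of at least 3 loci were found in both directions, with 47.1% of the tested MSTRG loci called higher and 13.06% lower as background. Consecutive numbers all called higher formed 181 runs of 2 loci, 5 of 3 and 1 of 4. Consecutive numbers all called lower formed 66 runs of 2, 7 of 3, 2 of 4 and 1 of 5, from fewer called loci. The run of 5 was MSTRG.202531 to MSTRG.202535, with log2 changes of -1.17, -1.17, -1.63, -1.75 and -1.61 and ratios of mean FPKM between 9.55 and 13.2. The runs of 4 that fell were MSTRG.181809 to MSTRG.181812 (-1.50, -1.60, -1.49 and -1.86) and MSTRG.304909 to MSTRG.304912 (-1.40, -1.39, -1.67 and -1.24). The last member of the second, MSTRG.304912, is one of the 9 loci with no postpuberty read. The run of 4 that rose was MSTRG.293173 to MSTRG.293176 (1.39, 1.27, 1.24 and 2.05), and MSTRG.293176 had no read in neonatal or prepuberty libraries and 2.82, 2.85 and 3.83 FPKM in postpuberty libraries.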

How the data were processed

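The deposited tables give 1 FPKM value per locus and library, made by the authors. The submitters' processing notes name HISAT2 2.1.0, an aligner, and StringTie 2.1.1, an assembler. Which build, annotation, read counter and locus filter were used was not given in the sources used here. Per the labels' protocols, TRIzol RNA went into libraries prepared by an lncRNA kit. Puberty replicate 1 was not analysed here.

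From these values log2(FPKM + 1) was computed and limma 3.58.1 (R 4.3.3) was fitted to the 6 postpuberty and prepuberty libraries with a variance trend (4 residual degrees of freedom), and apart from that to the 2 puberty and 3 neonatal libraries, two-sided, with Benjamini-Hochberg adjustment over the 10884 loci. Errors after log2 changes are limma standard errors, and fold ratios are of mean FPKM. The limma step was tested on simulated data, where the smallest simulated rises and falls were mostly not called. Whole reads, library sizes and implied lengths were recovered from the FPKM steps, within 0.02 reads and 0.02 bases for all 24116 loci; some implied lengths may be too small by a whole factor, and 284 were under 200 bases. The tables hold part of each library, so all levels rest on the authors' scaling. Replicates of an age all differed by more than sampling noise (chi-square per locus 12.4 or more).

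Named loci are, among those called, the 6 most abundant that rose and the 6 that fell, the 5 largest rises and falls, the 5 most abundant with no prepuberty read and the 5 most abundant not called; loci of the filter edge, the lost class and the runs were named after their values were seen. A locus taken by 2 parts of the rule counts under both. Lists of germ, Sertoli, Leydig and other testis genes were planned, but 0 identifiers matched the 28911 genes of ARS1.2, so none was used. The members, rules and lists were chosen with earlier results of these data known. Alternatives were another pseudocount, filters, scalings, the fit on all 11 libraries, no variance trend, voom on recovered reads, the replicate block and leaving out each library. Leaving out libraries for the counts of silent loci, and the counts over loci that reached 1 FPKM at both ages, were added after seeing the data.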

Additional observations from a re-analysis of the deposited data

How the results depend on the processing

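Against 4950 higher and 1520 lower, the lower count moved by over 1.5 times with a pseudocount of 0.1 (2826, with 5949 higher), quantile normalization (2860, with 2988 higher), TPM (2412, with 6160 higher) and voom on recovered reads (2850, with 5935 higher). Median of ratios scaling gave 5127 and 1334, no filter 5096 higher, a filter on 3 libraries 3990 higher, and leaving out 1 library 4622 to 4956 higher and 1447 to 1620 lower. The replicate block gave 4960 higher and 1526 lower, which took in all 4950 and 1520; same-numbered libraries deviated together with correlations of only -0.01, 0.05 and 0.03, so the numbers were not taken as pairs. Puberty against neonatal gave 2756 to 2997 higher and 1487 to 2160 lower with 1 library left out, and 2868 and 2184 with the replicate block. Loci that reached 1 FPKM at both ages gave 156 to 170 higher and 413 to 422 lower with 1 library left out, 85 and 718 under quantile normalization, and 318 higher under TPM. Loci with no prepuberty read numbered 1961 at a minimum of 0.5 FPKM, 351 at 2 FPKM and 1059 to 1346 with 1 library left out. The reverse class of 9 numbered 37, 1 and 12 to 19. Leaving out a library can only enlarge these 2 classes, since fewer libraries then have to meet the rule. The mean number of loci above 0 in postpuberty libraries, 21646, was 21441 after thinning. Over the 30 named entries and their alternatives, 460 kept direction and call, 12 lost the call (8 of them MSTRG.16), 3 gained it (MSTRG.178147 without postpuberty replicate 1, MSTRG.407379 without postpuberty replicate 3 and MSTRG.412719 without prepuberty replicate 3) and 5 changed sign: MSTRG.180257 (0.79) and MSTRG.178147 (0.43) under quantile normalization, and MSTRG.411472 under quantile normalization (-0.84), without prepuberty replicate 2 (-0.30) and without postpuberty replicate 2 (-0.04; -0.30 to 0.67 over all single libraries left out). Values under quantile normalization follow rank alone, so the sign changes of MSTRG.180257 and MSTRG.178147 there are changes of rank. The causes were not tested. Depth limits low loci most: a locus with no read may be present below that floor.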
